A study of Mus musculus with 12 samples.

Results

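The 10 genes described here encode cathepsins B, C, D, E, H, K, L, S and Z (Ctsb, Ctsc, Ctsd, Ctse, Ctsh, Ctsk, Ctsl, Ctss and Ctsz) and legumain (Lgmn), and they were taken by gene name from a table of 55322 genes. Their RNA was measured in type 2 conventional dendritic cells (cDC2) sorted from mouse spleen, with 3 libraries in each of 4 groups. L-cDC2 were the tdTomato-positive and M-cDC2 the tdTomato-negative cells of Il7r-Cre;Rosa26-lsl-tdTomato mice, in which Cre driven from the Il7r locus leaves a lasting red mark in a cell and its descendants. CLP-cDC2 came from common lymphoid progenitors (CLP) and CDP-cDC2 from common dendritic cell progenitors (CDP), both of wild-type mice; the progenitors were injected into bone marrow of B6.SJL hosts, which carry CD45.1+ cells of their own, and their CD45.2+ descendants were sorted. Every mouse received lipopolysaccharide (LPS, 5 mg/kg, into the peritoneum) 4 days before the spleen was taken, and the labels give an age of 7 to 8 weeks. No group went without LPS, so every level below is a level after LPS. Whether replicates were separate animals, whether L-cDC2 and M-cDC2 shared mice, and which surface markers defined the sort are not in the labels, so p-values measure the spread between these libraries only, which may be technical.

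Dendritic cells break down captured protein in endosomes and lysosomes before its peptides are loaded on MHC class II molecules. The same proteases trim the invariant chain, the chaperone encoded by Cd74 that blocks the class II groove until it is cut away. Cysteine cathepsins, aspartic cathepsins and legumain divide this work, and cystatins hold the cysteine cathepsins in check.

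The libraries held an estimated 26543345 to 73732243 assigned fragments, and 12860 to 13892 genes reached 1 FPKM (fragments scaled by gene length in kilobases and by library depth). All 11 cDC2 markers examined, among them Itgax, Flt3, Zbtb46, Sirpa and H2-Ab1, were at 1 FPKM or more in every library. CDP-cDC2 replicate 3 stood apart on the second principal component of all tested genes and M-cDC2 replicate 3 on the third. Transcripts of other cell types differed between groups: the summed level of 8 NK cell markers was 193 to 286 FPKM in L-cDC2 and 1.39 to 2.74 FPKM in M-cDC2, with none of the 8 at 0 in a whole group of the pair. The sum of 7 monocyte markers, most of it Lyz2, was 116 to 128 FPKM in L-cDC2 and 295 to 321 FPKM in M-cDC2, and 57.8 to 115 FPKM in CLP-cDC2 and 437 to 574 FPKM in CDP-cDC2. The sum of 8 B cell markers was 147 to 154 FPKM in L-cDC2 and 42.0 to 54.8 FPKM in M-cDC2. The part of these differences in the protease values below was not tested. In bulk RNA, fewer cells of a type and less RNA per cell cannot be told apart.

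Promoter windows from 250 bases before to 50 bases after the annotated start were available for 7 of the 10 genes in RefSeq (GRCm38.p6). They are shown for Ctsc and Ctss, whose CLP-cDC2 libraries all lay below all CDP-cDC2 libraries, as did those of Lgmn. Of these genes only Ctsc passed the threshold of the tests below. Ctsz had a lower mean level in CLP-cDC2 too, but its libraries overlapped those of CDP-cDC2, and its window is not shown. Capitals mark 3 motifs, searched on both strands: CACGTG, the E-box core of the element recognised by TFEB, GAGGAAGT, a sequence recognised by PU.1 in myeloid cells, and a pair of GAAA separated by 2 bases, the repeat found in interferon response elements. The first window is Ctsc (chr7:88277835-88278134, plus strand) and the second Ctss (chr3:95526536-95526835, plus strand), each read 5′ to 3′ on the gene's strand.
Ctsc: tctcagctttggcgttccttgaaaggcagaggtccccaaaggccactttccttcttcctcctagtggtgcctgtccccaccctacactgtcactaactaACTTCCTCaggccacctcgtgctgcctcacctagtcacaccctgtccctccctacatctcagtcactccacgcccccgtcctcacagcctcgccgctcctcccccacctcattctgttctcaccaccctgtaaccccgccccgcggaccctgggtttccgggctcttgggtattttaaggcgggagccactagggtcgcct
Ctss: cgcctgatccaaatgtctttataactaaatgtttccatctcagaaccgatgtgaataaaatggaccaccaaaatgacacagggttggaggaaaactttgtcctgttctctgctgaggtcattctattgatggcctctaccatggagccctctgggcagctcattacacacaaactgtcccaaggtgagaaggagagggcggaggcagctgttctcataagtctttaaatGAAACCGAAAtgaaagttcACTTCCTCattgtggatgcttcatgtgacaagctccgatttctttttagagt
In Ctsc the capitals are GAGGAAGT on the opposite strand, 151 to 144 bases before the start. In Ctss they are the GAAA pair and, downstream of it and running over the start, GAGGAAGT on the opposite strand. GAGGAAGT was present in 3.20% and the GAAA pair in 3.44% of all 32851 promoter windows of this length.

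CACGTG was present in the windows of Ctsd, Ctsl and Lgmn, 3 of the 7 genes, against 7.15% of all windows. Ctsd held 2 copies. The 30 bases around each copy in Ctsd (chr7:142388048-142388077, minus strand and chr7:142387908-142387937, minus strand) and the copy in Lgmn (chr12:102439124-102439153, minus strand) are shown because the L-cDC2 libraries lay above all M-cDC2 libraries for Ctsd and the CDP-cDC2 libraries above all CLP-cDC2 libraries for Lgmn. The Lgmn copy is in the window of 1 of its 2 annotated starts. The end of that window was not found in a GENCODE transcript of Lgmn, whereas the end of the other window was.
Ctsd, first copy: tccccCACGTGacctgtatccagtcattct
Ctsd, second copy: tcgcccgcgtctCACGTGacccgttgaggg
Lgmn: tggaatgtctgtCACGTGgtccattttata
No copy of the 3 motifs was found in the windows of Ctsz and Ctsk, which says only that these letters are absent from those windows. Of the other sequences searched, CCAAT was present in Ctsz and Lgmn (37.4% of all windows), TATAAA in Ctss and Lgmn (13.6%), GGGCGG in Ctsc, Ctsd, Ctss, Ctsz and Lgmn (35.7%), and TGAGTCA in none of the 7 (5.20%).

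Across the 12 libraries the proteases spanned several orders of magnitude on the FPKM scale, and their order was stable. The 7 genes with a mean of at least 5 FPKM kept the order Ctsz, Ctss, Ctsh, Ctsb, Ctsd, Ctsc, Lgmn in 12 of 12 libraries. Ctsz and Ctss together made up 74.7 to 80.1% of the summed FPKM of the 10 genes in a library. The 10 genes together held 0.490% ± 0.030 of all FPKM in L-cDC2 and 0.533% ± 0.016 in M-cDC2, and 0.460% ± 0.011 in CLP-cDC2 and 0.542% ± 0.042 in CDP-cDC2 (SD, n = 3 each).

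Ctsz (chromosome 2, 174269286 to 174280832, minus strand, coordinates as deposited, build not given) encodes cathepsin Z, a carboxypeptidase that removes single residues from the end of a chain. It ranked 23 among 21821 protein-coding genes by mean FPKM. It had 1130.2, 1042 and 1153 FPKM in L-cDC2 and 1169, 1211 and 1332 FPKM in M-cDC2. In CLP-cDC2 it had 1047, 1062 and 1051 FPKM, and in CDP-cDC2 1327, 1104 and 1007 FPKM. The 3 CLP-cDC2 libraries lay close together and inside the wide range of the CDP-cDC2 libraries, whereas each L-cDC2 library was below each M-cDC2 library.

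Ctss (chromosome 3, 95434097 to 95463714, plus strand, as deposited) encodes cathepsin S, the endopeptidase that makes the late cuts in the invariant chain in dendritic cells and B cells. It ranked 51. It had 735, 555 and 747 FPKM in L-cDC2 and 807, 861 and 770.3 FPKM in M-cDC2. It had 624, 657 and 614 FPKM in CLP-cDC2 and 939.7, 1046 and 695 FPKM in CDP-cDC2. Every L-cDC2 library lay below every M-cDC2 library, and every CLP-cDC2 library below every CDP-cDC2 library. The lowest CDP-cDC2 value, in replicate 3, was the one nearest to the CLP-cDC2 libraries.

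Lgmn (chromosome 12, 102360343 to 102406072, minus strand, as deposited) encodes legumain, an endopeptidase that cuts after asparagine and also processes other cathepsins. It had 25.9, 34.3 and 25.6 FPKM in L-cDC2 and 25.7, 25.4 and 25.2 FPKM in M-cDC2. It had 29.0, 23.2 and 25.4 FPKM in CLP-cDC2 and 33.9, 30.3 and 48.9 FPKM in CDP-cDC2. The CDP-cDC2 libraries were above both the CLP-cDC2 and the M-cDC2 libraries, and 1 of them, replicate 3, carried the highest value of the 12.

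Ctsc (chromosome 7, 87927293 to 87960096, plus strand, as deposited) encodes cathepsin C, a dipeptidyl peptidase that clips dipeptides from the front of a chain and activates granzymes and neutrophil serine proteases. It had 53.8, 46.9 and 48.8 FPKM in L-cDC2 and 51.4, 52.8 and 42.9 FPKM in M-cDC2. It had 34.3, 42.3 and 39.4 FPKM in CLP-cDC2 and 52.0, 52.1 and 55.1 FPKM in CDP-cDC2. The L-cDC2 and M-cDC2 ranges overlapped, the highest value being in L-cDC2 and the lowest in M-cDC2. All 3 CLP-cDC2 libraries lay below all 3 CDP-cDC2 libraries and below all 3 L-cDC2 libraries.

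Ctsh (chromosome 9, 89936205 to 89958142, plus strand, as deposited) encodes cathepsin H, an aminopeptidase, and Ctsb (chromosome 14, 63359911 to 63383372, plus strand, as deposited) encodes cathepsin B, which acts both inside a chain and as a dipeptide-releasing carboxypeptidase. Ctsh averaged 254 ± 14.3 FPKM in L-cDC2 and 285 ± 16.8 FPKM in M-cDC2, and 280.2 ± 21.5 FPKM in CLP-cDC2 and 255 ± 38.0 FPKM in CDP-cDC2 (SD, n = 3 each). Ctsb averaged 126 ± 4.38 FPKM in L-cDC2 and 134 ± 2.99 FPKM in M-cDC2, and 117 ± 5.88 FPKM in CLP-cDC2 and 115 ± 2.50 FPKM in CDP-cDC2 (SD, n = 3 each). Ctsb had the narrowest spread of the 9 tested genes, with a highest value 1.25 times its lowest over the 12 libraries. Of the 6051 bases counted for Ctsb, 774 are also exons of Fdft1 on the opposite strand, and reads of both genes cannot be told apart there unless counting used strand, a setting not given in the sources used here. Between the exons of Ctsz and Nelfcd this overlap is 10 bases.

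Ctsd (chromosome 7, 141929648 to 141941775, minus strand, as deposited) encodes cathepsin D, the main aspartic protease of lysosomes. It had 93.1, 96.2 and 91.1 FPKM in L-cDC2 and 61.9, 73.6 and 77.6 FPKM in M-cDC2. It had 97.7, 90.2 and 81.5 FPKM in CLP-cDC2 and 93.9, 55.1 and 89.2 FPKM in CDP-cDC2. The L-cDC2 libraries were above all M-cDC2 libraries, and the single low CDP-cDC2 library, replicate 2, set the wide range of its group. Of the 2351 bases counted for Ctsd, 808 are shared on the same strand with the predicted gene Gm49369, which had 39.8 to 74.4 FPKM. With the reads of both genes summed on the length of Ctsd, a choice made after seeing the data, the level was 124 ± 0.373 FPKM in L-cDC2 and 94.2 ± 9.66 FPKM in M-cDC2 (SD, n = 3 each). It was 118 ± 8.79 FPKM in CLP-cDC2 and 103 ± 26.5 FPKM in CDP-cDC2 (SD, n = 3 each). The summed level did not pass in limma in either pair (log2 difference 0.40, adjusted p = 0.524 between L-cDC2 and M-cDC2, and 0.23, adjusted p = 0.395 between CLP-cDC2 and CDP-cDC2).

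The remaining 3 genes were near or under the filter of 1 FPKM in at least 3 libraries. Ctse (chromosome 1, 131566044 to 131603243, plus strand, as deposited), an aspartic protease of endosomes, ranged over the 12 libraries from 0.625 to 2.05 FPKM. Ctsl (chromosome 13, 64507151 to 64518704, minus strand, as deposited), which cuts the invariant chain in mouse thymic cortical epithelium, ranged from 0.437 to 1.41 FPKM. Its counted exons hold all 1742 bases of the antisense RNA Gm47123 and all 395 bases of the pseudogene Gm49230. Ctsk (chromosome 3, 95406567 to 95416673, plus strand, as deposited), the collagen-degrading protease of osteoclasts, had 0 fragments in all 3 L-cDC2 libraries and an estimated 0 to 2 in M-cDC2, 0 to 11 in CLP-cDC2 and 1 to 7 in CDP-cDC2. A count of 0 allows up to 3 fragments, or 0.0269 to 0.0748 FPKM in the L-cDC2 libraries. Ctsk was the only one of the 10 genes left out of the tests below.

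**Figure D1:**
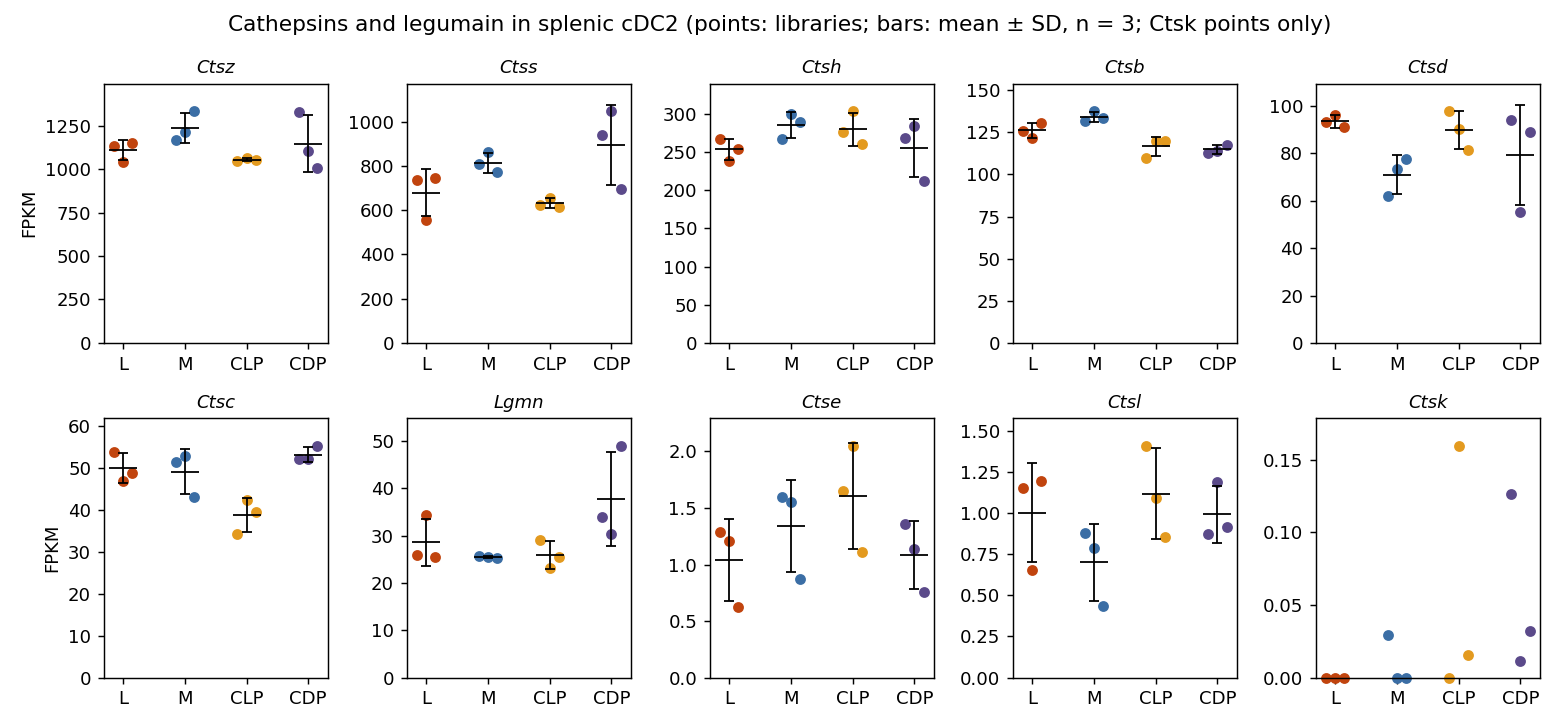
FPKM of each of the 10 genes (y axis, linear, from 0) in the 4 groups (x axis); points are libraries and bars the mean ± SD of 3 libraries, with points alone for Ctsk. The CLP-cDC2 points of Ctsc, Ctss and Lgmn sit below all CDP-cDC2 points, and the L-cDC2 points of Ctsd above all M-cDC2 points.

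The first comparison asked how reporter-positive cells differ from reporter-negative cells of the same mouse line. None of the 9 tested protease genes passed the threshold, an adjusted p under 0.05 in limma over all 14538 genes tested, and 1.73% of all genes did. At an unadjusted p under 0.05 the count was 1 of 9, Ctsd, beside 1201 of all 14538 genes. Ctsd differed by 0.40 ± 0.17 (SE) on the log2(FPKM + 1) scale between L-cDC2 and M-cDC2, with a 95% interval from 0.02 to 0.78 and an adjusted p of 0.564. Ctss differed by -0.27 (adjusted p = 0.685), Ctsz by -0.16 (adjusted p = 0.743) and Ctsb by -0.09 (adjusted p = 0.815). Groups that did not overlap were seen for Ctsd, which was higher, where 12.7% of all genes did so, and for Ctss, Ctsz and Ctsb, which were lower, where 6.67% of all genes did so. The median absolute difference was 0.17 for the 9 genes and 0.16 for all genes. Over the 7 genes with at least 5 FPKM, the 95% intervals together ran from -0.60 to 0.78.

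The same comparison with transferred progenitors asked how the progeny of CLPs differ from the progeny of CDPs. Ctsc fell in CLP-cDC2, to 38.7 ± 4.07 FPKM, against 53.1 ± 1.78 FPKM in CDP-cDC2 (SD, n = 3 each). The log2 difference was -0.45 ± 0.12 (SE), with a 95% interval from -0.71 to -0.19 and an adjusted p of 0.0266 in limma. It was the only one of the 9 tested genes to pass, where 13.1% of all genes passed in either direction and 6.12% passed as lower. The call is close to the threshold: the adjusted p was 0.0939 without CLP-cDC2 replicate 1, 0.0514 without CLP-cDC2 replicate 3, 0.0541 without CDP-cDC2 replicate 2 and 0.0656 without CDP-cDC2 replicate 3, with log2 differences from -0.37 to -0.52 over all single libraries left out. It was 0.0539 with no filter on low values, 0.0972 when only the 2 groups were fitted, and 0.0394 with CDP-cDC2 replicate 3 and M-cDC2 replicate 3 both left out.

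Ctss and Lgmn had differences of about the size of that of Ctsc and larger spreads. Ctss averaged 631 ± 22.6 FPKM in CLP-cDC2 and 894 ± 180.1 FPKM in CDP-cDC2 (SD, n = 3 each), a log2 difference of -0.48 ± 0.15 (SE) with an adjusted p of 0.0562. Without CDP-cDC2 replicate 3, the library that stands apart, the difference of Ctss was -0.65 and its adjusted p 0.0101, and without CDP-cDC2 replicate 2 it was -0.36 and 0.166. Lgmn averaged 25.8 ± 2.92 FPKM in CLP-cDC2 and 37.7 ± 9.83 FPKM in CDP-cDC2 (SD, n = 3 each), a log2 difference of -0.50 ± 0.17 (SE) with an adjusted p of 0.0735. Without CDP-cDC2 replicate 3 the difference of Lgmn was -0.31 and its adjusted p 0.220, and without CDP-cDC2 replicate 2 it was -0.64 and 0.0437. Leaving out either of these libraries moved Ctss and Lgmn in opposite directions.

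For these 3 genes the CLP-cDC2 libraries did not overlap the CDP-cDC2 libraries, each time on the lower side, where 13% of all genes did so. No protease gene was separated on the higher side, where 16.7% of all genes were. The other 6 tested genes had log2 differences from -0.11 (Ctsz) to 0.32 (Ctse) with adjusted p from 0.352 to 0.897. That of Ctsd, 0.21, turned to -0.03 without CDP-cDC2 replicate 2. The median absolute difference was 0.21 for the 9 genes and 0.26 for all genes. Markers of dendritic cells themselves moved with this comparison, 8 of 11 cDC2 markers being lower and 5 of 9 cDC1 markers higher in CLP-cDC2. Among all genes, 6.12% were called lower and 13.1% in either direction. The cDC2 markers summed to 7081 to 8772 FPKM in CLP-cDC2 and 11123 to 12026 FPKM in CDP-cDC2. Most of that sum was the class II gene H2-Ab1, which averaged 7560 FPKM in CLP-cDC2 and 10823 FPKM in CDP-cDC2. The cDC1 markers summed to 194 to 246 FPKM in CLP-cDC2 and 112 to 176 FPKM in CDP-cDC2. Monocyte markers moved with it too, 3 of 5 tested being lower in CLP-cDC2 and none higher, and the sum of 10 macrophage markers was 16.9 to 111 FPKM in CLP-cDC2 and 91.6 to 122 FPKM in CDP-cDC2. B cell and plasmacytoid dendritic cell (pDC) markers stood the other way. The sum of 8 B cell markers was 67.3 to 75.4 FPKM in CLP-cDC2 and 34.0 to 52.4 FPKM in CDP-cDC2, with 4 of 6 tested called higher and none lower. The sum of 8 pDC markers was 142 to 277 FPKM in CLP-cDC2 and 54.6 to 117 FPKM in CDP-cDC2, where Klk1 was at 0. Of 5 pDC markers tested, 2 were called higher in CLP-cDC2 and none lower. Bst2 had the highest mean of the 8 in both groups. Its ranges overlapped, at 81.6 to 137 FPKM in CLP-cDC2 and 49.8 to 105 FPKM in CDP-cDC2. Those of Ly6d did not, at 23.9 to 68.7 FPKM in CLP-cDC2 and 0.494 to 3.45 FPKM in CDP-cDC2. Among 6 neutrophil markers, Camp and Retnlg were at 0 in every library of both groups and the sum of the 6 was at most 1.69 FPKM in either group. The part of any of these cell types in the values of Ctsc, Ctss and Lgmn was not tested.

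**Figure D2:**
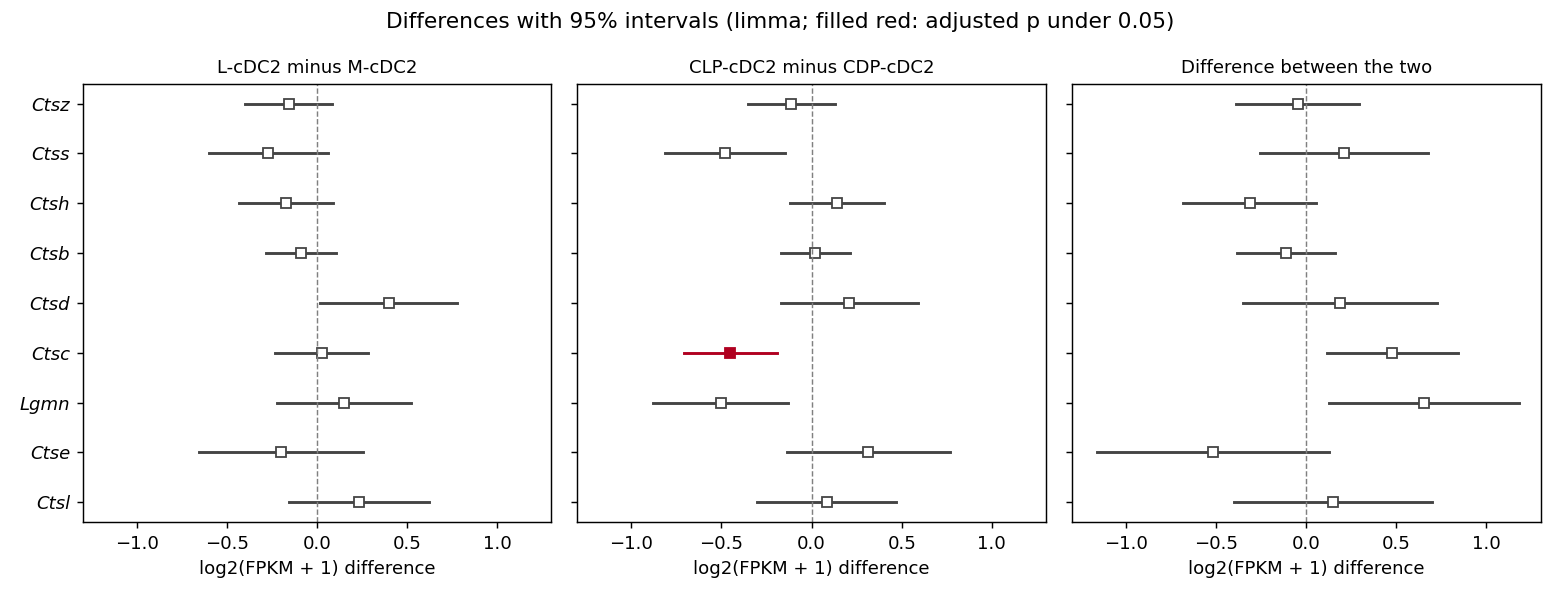
Log2(FPKM + 1) difference (x axis) of the 9 tested genes (y axis, ordered by mean level) between L-cDC2 and M-cDC2, between CLP-cDC2 and CDP-cDC2, and the first difference minus the second; squares are limma estimates and lines 95% intervals, with adjusted p under 0.05 filled in red. The red square is Ctsc between CLP-cDC2 and CDP-cDC2, at -0.45.

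Whether the 2 lineage differences were unequal was tested as the difference between them, which shares no libraries between its terms. None of the 9 genes passed, against 5.99% of all genes. The lowest p-values were those of Lgmn (0.65, 95% interval 0.13 to 1.18, adjusted p = 0.124) and Ctsc (0.48, 95% interval 0.11 to 0.84, adjusted p = 0.106). At an unadjusted p under 0.05 the count was 2 of 9, these same genes, beside 3628 of all 14538 genes. So a difference of Ctsc between the reporter pair and the transfer pair was not shown, although the threshold was passed in 1 of them.

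The series also asked how alike CLP-derived cells and L-cDC2 are. None of the 9 genes passed between CLP-cDC2 and L-cDC2, against 10.6% of all genes. Ctsc came nearest, at -0.36 (adjusted p = 0.0709), and passed once M-cDC2 replicate 3 and CDP-cDC2 replicate 3 were both left out (adjusted p = 0.0333) and with libraries weighted by their quality (adjusted p = 0.0225). Groups that did not overlap were seen for Ctsb and Ctsc, both lower in CLP-cDC2, where 35.8% of all genes were separated in either direction. Over the 7 genes with at least 5 FPKM, the 95% intervals together ran from -0.62 to 0.40, which bounds what these libraries leave room for. The median absolute difference was 0.11 for the 9 genes and 0.24 for all genes.

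Between CDP-cDC2 and M-cDC2 none of the 9 genes passed, against 2.58% of all genes. Lgmn differed by 0.52 (95% interval 0.15 to 0.90, adjusted p = 0.123), or 0.32 without CDP-cDC2 replicate 3, and Ctsb by -0.22 (95% interval -0.42 to -0.03, adjusted p = 0.186). These 2 genes, Lgmn higher and Ctsb lower in CDP-cDC2, were the ones whose groups did not overlap, where 24.4% of all genes were separated in either direction. With libraries weighted by their quality, Ctsb passed (adjusted p = 0.0228). These comparisons and the lineage comparisons share libraries, so they are not independent of each other.

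The 9 genes did not move as a block from library to library. Over the 12 libraries, the highest Pearson correlation of log2(FPKM + 1) between 2 of them was 0.61 (Ctss and Ctsz), and the lowest were -0.79 (Ctsh and Lgmn) and -0.64 (Ctsd and Ctss). These points include all 4 groups and share each library's depth. The gene most like each member over the 12 libraries was Nabp1 for Ctsc (r = 0.94), Fcgr2b for Ctss (r = 0.90), Pitpnm1 for Lgmn (r = 0.98), Eola1 for Ctsz (r = 0.90), Tmem199 for Ctsh (r = 0.92), Jaml for Ctsb (r = 0.87), Cd2bp2 for Ctsd (r = 0.81), Cd3eap for Ctse (r = 0.87) and Cd5 for Ctsl (r = 0.85). Each is the highest of 5792 or 5793 candidates, so values of this size are a product of the choice as well.

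**Figure D3:**
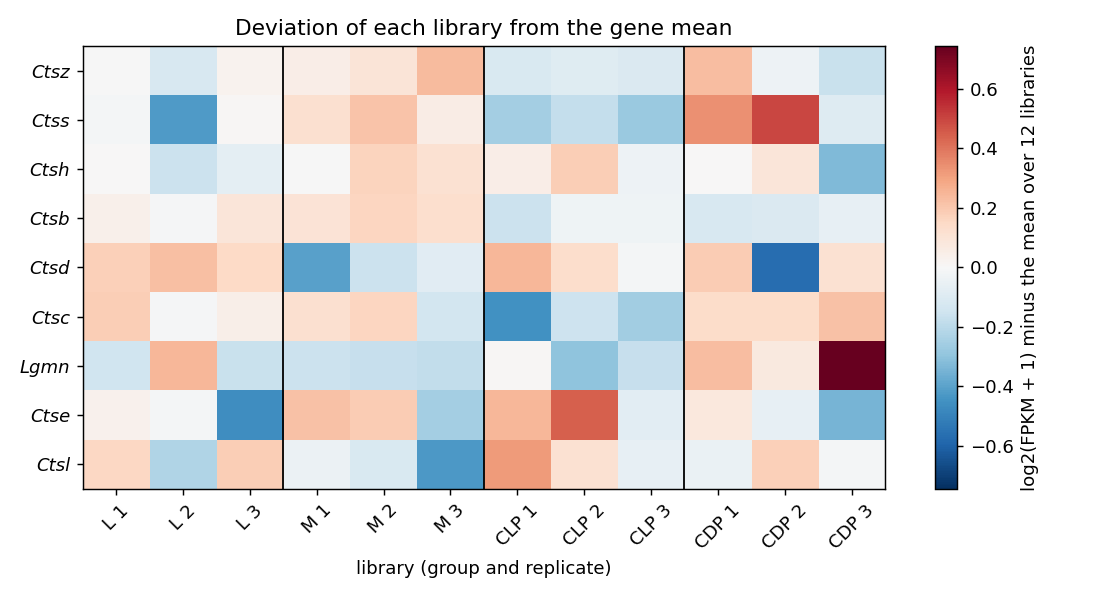
Log2(FPKM + 1) of the 9 tested genes (rows) in each of the 12 libraries (columns, labelled by group and replicate) minus the gene's mean over the libraries; red is above and blue below the mean. CDP-cDC2 replicate 2 has low Ctsd beside high Ctss, and CDP-cDC2 replicate 3 has high Lgmn beside low Ctsh.

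Among the inhibitors, Cst3 was the one called in the reporter comparison. Cst3 encodes cystatin C, a secreted and endosomal inhibitor of cysteine cathepsins. It fell in L-cDC2, with 1238, 1039 and 1345 FPKM, against 2210.3, 2195 and 2573 FPKM in M-cDC2, and the log2 difference was -0.95 ± 0.14 (SE; adjusted p = 0.00263). In CLP-cDC2 it had 1884, 1630.2 and 1557 FPKM and in CDP-cDC2 1672, 1448 and 1182 FPKM, a log2 difference of 0.25 (adjusted p = 0.286). The 2 differences were unequal, at -1.20 (adjusted p = 0.00705), though the adjusted p was 0.0508 with no filter on low values. Markers of cDC1 moved with it: 5 of 9 were lower and 0 higher in L-cDC2, with a sum of 129 to 155 FPKM in L-cDC2 and 245 to 266 FPKM in M-cDC2. In the difference between the 2 comparisons 6 of 9 were lower and 0 higher, where 5.99% of all genes were called in either direction. The part of cDC1 markers in the Cst3 values was not tested. Cst3 was also called in limma between groups of like lineage. It differed by -0.71 between CDP-cDC2 and M-cDC2 (adjusted p = 0.0274) and by 0.49 between CLP-cDC2 and L-cDC2 (adjusted p = 0.0492). Cstb, which encodes the cytosolic inhibitor stefin B, averaged 109 ± 1.08 FPKM in L-cDC2 and 104 ± 9.88 FPKM in M-cDC2 and did not pass, nor did Cst7 (cystatin F), at 22.2 ± 1.70 FPKM in L-cDC2 and 23.0 ± 3.22 FPKM in M-cDC2 (SD, n = 3 each). Of 14 listed inhibitors, 3 passed the filter on low values, and 1 was called lower between L-cDC2 and M-cDC2 and 0 between CLP-cDC2 and CDP-cDC2. The shares of all genes called in either direction were 1.73% between L-cDC2 and M-cDC2 and 13.1% between CLP-cDC2 and CDP-cDC2.

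In class II loading, Cd74 was called between CLP-cDC2 and CDP-cDC2 and H2-DMb1 between L-cDC2 and M-cDC2. Cd74, the invariant chain, fell in CLP-cDC2, to 6880.3 ± 499 FPKM, against 12864 ± 2233 FPKM in CDP-cDC2 (SD, n = 3 each), a log2 difference of -0.89 (adjusted p = 0.00102). It had 10523 ± 545 FPKM in L-cDC2 and 11660.2 ± 654 FPKM in M-cDC2, where it did not pass. The 2 differences were unequal at 0.74 (adjusted p = 0.0312), a call lost in 10 of 25 alternatives. H2-DMb1, a chain of the peptide exchange factor H2-DM, fell in L-cDC2 to 497 ± 41.1 FPKM, against 711 ± 40.0 FPKM in M-cDC2 (log2 difference -0.52, adjusted p = 0.0394), a call lost in 13 of 26 alternatives. Ifi30, the thiol reductase GILT, and Sppl2a, the protease that clears the last membrane stub of the invariant chain, did not pass in either lineage comparison. Of the 10 listed genes of class II loading that were tested, 1 was lower and 0 higher in each of the 2 comparisons. Among all genes, 1.73% were called between L-cDC2 and M-cDC2 in either direction, and 6.12% were called lower in CLP-cDC2 than in CDP-cDC2. The median log2 differences of the 10 genes were -0.0070 between L-cDC2 and M-cDC2 and -0.04 between CLP-cDC2 and CDP-cDC2.

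Of 13 other cathepsins, 3 passed the filter on low values and 1 was called, Ctsw, in both lineage comparisons. The shares of all genes called in either direction were 1.73% between L-cDC2 and M-cDC2 and 13.1% between CLP-cDC2 and CDP-cDC2. Ctsw encodes cathepsin W, known from NK cells and cytotoxic T cells. Ctsw rose in L-cDC2, with 12.8, 14.0 and 17.6 FPKM, against 1.43, 1.09 and 1.44 FPKM in M-cDC2 (log2 difference 2.76, adjusted p = 9.74e-05). It also rose in CLP-cDC2, with 6.59, 5.28 and 2.48 FPKM, against 0.740, 2.01 and 0.695 FPKM in CDP-cDC2 (log2 difference 1.41, adjusted p = 0.00726, lost in 1 of 26 alternatives). The 8 NK cell markers summed to 193 to 286 FPKM in L-cDC2 and 1.39 to 2.74 FPKM in M-cDC2, and 3.42 to 14.2 FPKM in CLP-cDC2 and 0.654 to 7.32 FPKM in CDP-cDC2, where the ranges overlapped. Of the 8 markers, 7 reached 1 FPKM in every L-cDC2 library and 0 in every M-cDC2 library, and Prf1 was at 0 in CDP-cDC2. The sum of 8 T cell markers was 32.8 to 43.4 FPKM in L-cDC2 and 1.81 to 3.34 FPKM in M-cDC2, where Cd3e was at 0. It was 7.05 to 14.2 FPKM in CLP-cDC2 and 2.41 to 4.44 FPKM in CDP-cDC2. Of 5 tested, 4 were called higher in L-cDC2 but only 1 in CLP-cDC2, and 0 lower in either. Lck averaged 6.70 FPKM in CLP-cDC2 and 0.967 FPKM in CDP-cDC2. Cd2, Trbc2, Cd247, Cd3e and Cd3g also had higher means in CLP-cDC2. Cd3d (0.175 and 0.538 FPKM) and Trac (0.450 and 0.865 FPKM) had lower means in CLP-cDC2 than in CDP-cDC2. The part of NK cell and T cell transcripts in the Ctsw values was not tested.

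Of 25 other lysosomal hydrolases, 6 were called lower and 1 higher in CLP-cDC2, where 6.12% of all genes were called lower and 13.1% in either direction. Their median log2 difference was -0.05, beside -0.01 for all genes. Acp5, an acid phosphatase, fell in CLP-cDC2 to 64.6 ± 6.30 FPKM, against 152 ± 34.2 FPKM in CDP-cDC2 (SD, n = 3 each; log2 difference -1.20, adjusted p = 0.000572). Psap, the precursor of the saposins, fell in CLP-cDC2 to 516 ± 89.9 FPKM, against 774 ± 207 FPKM in CDP-cDC2 (log2 difference -0.57, adjusted p = 0.0461), a call lost in 15 of 26 alternatives. Ppt1, a palmitoyl thioesterase, rose in CLP-cDC2 to 110.3 ± 12.7 FPKM, against 75.3 ± 11.1 FPKM in CDP-cDC2 (log2 difference 0.55, adjusted p = 0.0293), a call lost in 9 of 26.

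Between L-cDC2 and M-cDC2, 2 of the 25 hydrolases were lower and 0 higher, where 1.73% of all genes were called in either direction, with a median log2 difference of -0.17 beside 0.04 for all genes. Psap fell in L-cDC2 to 529 ± 21.4 FPKM, against 933 ± 33.7 FPKM in M-cDC2 (log2 difference -0.82, adjusted p = 0.0254), a call lost in 9 of 26 alternatives. Ppt1 fell in L-cDC2 to 74.0 ± 6.18 FPKM, against 132 ± 21.0 FPKM in M-cDC2 (log2 difference -0.81, adjusted p = 0.00969), a call lost in 4 of 26. Ppt1 therefore changed in opposite directions in the 2 lineage comparisons. The cDC1 markers did so too, with 5 of 9 lower in L-cDC2 and 5 of 9 higher in CLP-cDC2, and their part in the Ppt1 values was not tested. Ppt1 was also called in limma between groups of like lineage. It differed by -0.79 between CDP-cDC2 and M-cDC2 (adjusted p = 0.017) and by 0.57 between CLP-cDC2 and L-cDC2 (adjusted p = 0.0291).

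Transcripts of lysosomal membrane proteins were called lower in CLP-cDC2 for 4 of 10 tested genes and higher for 0, where 6.12% of all genes were called lower, with a median log2 difference of -0.37 beside -0.01 for all genes. Lamp1, a heavily glycosylated lining protein, fell to 14.6 ± 3.60 FPKM in CLP-cDC2, against 77.9 ± 22.1 FPKM in CDP-cDC2 (SD, n = 3 each; log2 difference -2.33, adjusted p = 0.00115). Cd63, a tetraspanin of late endosomes, fell to 0.653 ± 0.126 FPKM, against 4.34 ± 0.0724 FPKM in CDP-cDC2 (log2 difference -1.70, adjusted p = 5.94e-05). Laptm5 fell to 511 ± 61.4 FPKM, against 763 ± 180.4 FPKM in CDP-cDC2 (log2 difference -0.56, adjusted p = 0.0279), a call lost in 6 of 26 alternatives. Lamp2 did not pass. Between L-cDC2 and M-cDC2 none of the 10 passed, where 1.73% of all genes did, and the median log2 difference of the 10 was -0.08. Of the 17 tested subunits of the V-ATPase, the proton pump that acidifies the lysosome, 3 were called lower and 0 higher in CLP-cDC2, with a median log2 difference of -0.08. They were Atp6v0a1 (-0.87, adjusted p = 0.00361), Atp6v0a2 (-0.81, adjusted p = 0.0338, lost in 9 of 26 alternatives) and Atp6v0c (-0.46, adjusted p = 0.0113, lost in 1 of 26). None of the 17 passed between L-cDC2 and M-cDC2, where 1.73% of all genes did.

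**Figure D4:**
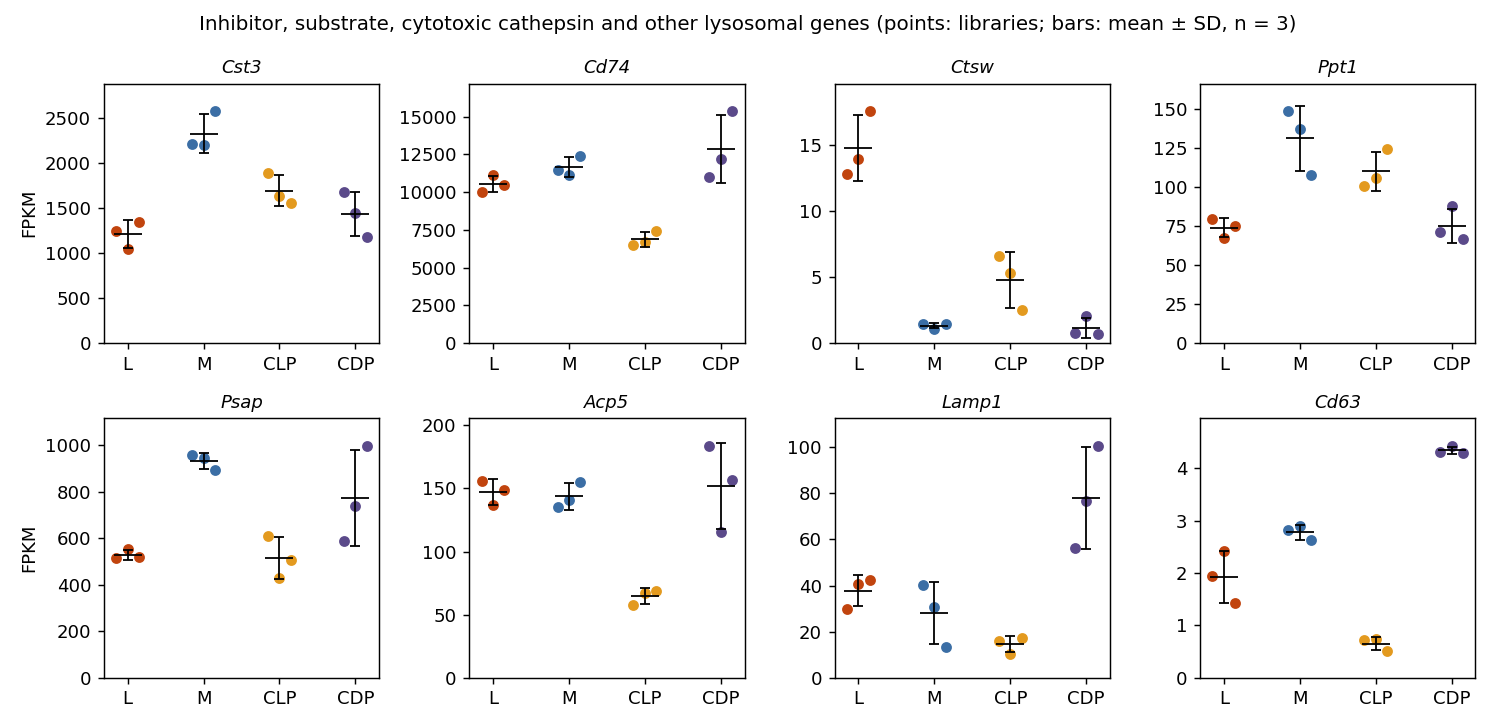
FPKM (y axis, linear, from 0) of Cst3, Cd74, Ctsw, Ppt1, Psap, Acp5, Lamp1 and Cd63 in the 4 groups (x axis); points are libraries and bars the mean ± SD of 3 libraries. All L-cDC2 points of Cst3 lie under the M-cDC2 points, and Cd74, Acp5, Lamp1 and Cd63 are lower in CLP-cDC2 than in CDP-cDC2.

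Of the transcription factors that drive lysosomal genes, Tfeb averaged 23.4 ± 2.41 FPKM in CLP-cDC2 and 32.1 ± 6.54 FPKM in CDP-cDC2 (SD, n = 3 each; log2 difference -0.43, adjusted p = 0.0651), and Tfe3 4.99 ± 0.871 FPKM in CLP-cDC2 and 7.91 ± 2.50 FPKM in CDP-cDC2 (log2 difference -0.55, adjusted p = 0.13). Neither passed in either lineage comparison. Mitf and Tfec were below the filter, at 0.0646 to 0.356 and 0.0633 to 0.588 FPKM over the 12 libraries. None of the 5 tested genes of mannose 6-phosphate sorting and sortilin, which carry hydrolases to the lysosome, passed in either lineage comparison. Among all genes, 1.73% passed between L-cDC2 and M-cDC2 and 13.1% between CLP-cDC2 and CDP-cDC2.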

How the data were processed

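RNA of 12 libraries (3 per group) was amplified with SMART-Seq HT and made into libraries with Nextera XT, per the labels' protocols. The authors deposited 1 table of FPKM, scaled so that FPKM times the deposited gene length divided by 1000 sums to 1000000 in each library. Per the submitters' processing notes the tools were STAR 2.7.9a, DESeq2 1.20.0, featureCounts 2.0.1, cutadapt 3.7, Trimmomatic 0.39 and Trim Galore 0.6.7, with no roles given. FPKM divides by 1 length per gene, so a gene with long unused exons has a low FPKM. Of 52046 gene identifiers shared with GENCODE M21 on GRCm38, 1462 had the same start, so deposited coordinates carry no build.

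Groups and replicate numbers came from the labels. Values were tested as log2(FPKM + 1) in limma 3.58.1 (R 4.3.3; two-sided moderated tests, eBayes with a mean trend), with 4 group means over 12 libraries and 8 residual degrees of freedom, for the 14538 genes that reached 1 FPKM in 3 or more libraries. In each of 5 contrasts p-values were adjusted by Benjamini-Hochberg across those genes and called under 0.05. The log2 scale understates changes of genes near 1 FPKM. Depth was estimated by taking the commonest low value as 1 fragment. From 45.2 to 53.6% of nonzero values were then whole (tolerance 0.02), the rest fractions, so fragments are estimates. The floor of 3 covers counting error only, whereas the limma intervals rest on the spread between libraries. Fragments equal between replicates were at most 0.374% of genes. Alternatives changed the pseudocount, filter, scaling, model and libraries used.

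The members and lists were chosen with earlier results of these data known. Named genes are all 10 members, up to 3 called genes per list by size of difference, 13 fixed genes, and the most correlated gene per tested member among protein-coding genes with a mean of at least 5 FPKM and no predicted name. Motifs were searched in RefSeq promoter windows with Python 3.11.15 and pandas 2.3.3, and figures drawn with matplotlib 3.10.9.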

Additional observations from a re-analysis of the deposited data

Results flagged for a closer look

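For 7 genes around the proteases the L-cDC2 minus M-cDC2 difference and the CLP-cDC2 minus CDP-cDC2 difference were unequal in the limma test of the difference between them. It was -1.20 for Cst3 (adjusted p = 0.00705, lost in 1 of 25 alternatives) and -1.36 for Ppt1 (adjusted p = 0.00408). It was 2.86 for Lamp1 (adjusted p = 0.00614, lost in 1 of 25 alternatives), 1.32 for Cd63 (adjusted p = 0.00599), 1.23 for Acp5 (adjusted p = 0.0081), 1.01 for Atp6v0a1 (adjusted p = 0.0206, lost in 5 of 24 alternatives) and 0.74 for Cd74 (adjusted p = 0.0312, lost in 10 of 25 alternatives). Among all genes, 5.99% passed this test. The other tested genes named around the proteases did not pass it. They were Cst7, Cstb, Ifi30, H2-DMb1, Sppl2a, Lamp2, Tfeb, Tfe3, Ctsw, Psap, Laptm5, Atp6v0a2 and Atp6v0c. Acp5, Atp6v0a1, Cd63 and Ppt1 had been named for large called differences in the lineage comparisons, which enter this test. Unequal differences are therefore partly a product of that choice. None of the 9 tested proteases, which were not picked by that rule, was among the 7 genes.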

How the results depend on the processing

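Of 1151 recomputed differences of the 9 tested proteases, 1102 kept their direction and their side of the threshold, 7 lost the call (all Ctsc between CLP-cDC2 and CDP-cDC2), 13 gained one, and 29 changed sign, none of them called and none with a main value beyond 0.21. The number of proteases called between CLP-cDC2 and CDP-cDC2, 1 as reported, was 0 with no filter and with only the 2 groups in the fit, 2 with a filter of 5 FPKM, quantile normalization, array weights, voom on estimated fragments, or M-cDC2 replicate 3 and CDP-cDC2 replicate 3 both left out (Ctsc and Ctss each time), and 3 with protein-coding genes only (Lgmn added), with a range of 0 to 2 when 1 library was left out. Between CLP-cDC2 and L-cDC2 the count was 1 with array weights and with those 2 libraries left out, and between CDP-cDC2 and M-cDC2 it was 1 with array weights, against 0 as reported. The causes were not tested.

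Replicate numbers in the labels were not taken as pairs: same-numbered libraries deviated together with a correlation over 0.1 in 1 of 3 pairs in each lineage comparison. With a replicate block, 0 proteases were called between CLP-cDC2 and CDP-cDC2, and the adjusted p of Ctsc was 0.0552. Own numbers correlated best for 1 of 6 libraries of the reporter pair and 3 of 6 of the transfer pair.

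Sign changes under quantile normalization were Ctsh -0.044 and Ctsb -0.15 between CLP-cDC2 and CDP-cDC2, Ctsz 0.14, Ctsl -0.028 and Ctsb 0.13 in the difference between the lineage comparisons, and Ctsz 0.017 between CDP-cDC2 and M-cDC2. With TMM-type factors they were Ctsc -0.040 between L-cDC2 and M-cDC2 and Ctsb -0.0055 between CLP-cDC2 and CDP-cDC2. With array weights they were Ctsc -0.041 between L-cDC2 and M-cDC2, Ctsz 0.0083 and Ctsd -0.12 in the difference between the lineage comparisons, and Ctsd -0.16 between CDP-cDC2 and M-cDC2. With those 2 libraries left out they were Ctsc -0.065 between L-cDC2 and M-cDC2, Ctsz 0.097 in the difference between the lineage comparisons, and Ctsz 0.025 and Ctsc -0.0017 between CDP-cDC2 and M-cDC2.

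With 1 library left out, values that crossed 0 ranged between L-cDC2 and M-cDC2 from -0.065 to 0.082 (Ctsc). Between CLP-cDC2 and CDP-cDC2 they ranged from -0.00064 to 0.063 (Ctsb), -0.031 to 0.35 (Ctsd) and -0.013 to 0.17 (Ctsl). Between CLP-cDC2 and L-cDC2 they ranged from -0.12 to 0.0068 (Ctsd), -0.046 to 0.18 (Ctsl) and -0.21 to 0.0013 (Lgmn). Between CDP-cDC2 and M-cDC2 they ranged from -0.011 to 0.37 (Ctsd) and -0.0065 to 0.29 (Ctss), and in the difference between the lineage comparisons from -0.16 to 0.042 (Ctsz).

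In the difference between the lineage comparisons the median of all genes was 0.05 as reported and -0.07 with quantile normalization; no other scaling moved a median by over 0.1. Of genes called between L-cDC2 and M-cDC2, 74.6% were higher as reported and 64.4% with quantile normalization, and between CDP-cDC2 and M-cDC2 62.9% as reported, 50.4% with quantile normalization and 51.8% with TMM-type factors. Ctse and Ctsl rest on an estimated 98 to 572 fragments per library, which limits their precision more than that of the other 7 tested proteases.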
